A study of Mus musculus with 29 samples.

Results

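This report describes the mouse genes of the proteasome on 29 expression arrays of 2 brain regions. Members were taken by symbol: every gene whose single platform symbol starts with Psma, Psmb, Psmc, Psmd, Psme or Psmg, each represented by the probe set with the highest mean over all arrays. This gave 47 genes of the 12393 with a single symbol, covered by 81 of the 22626 probe sets tested, and all 47 are accounted for here. Of these, 45 encode subunits, activators or assembly chaperones. The other two, Psmc3ip (a partner of meiotic recombination) and Psme3ip1 (a protein that binds the activator Psme3), match the prefix without being part of the complex. Psme2 was left out because its probe set also carries the symbol Psme2b.

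The proteasome is the main protease for proteins that are tagged with ubiquitin. Its barrel-shaped core, the 20S particle, stacks rings of alpha subunits, which gate the entrance, on rings of beta subunits, a few of which cut peptides. The 19S regulatory particle binds the ubiquitin chain, removes it and unfolds the substrate with a ring of ATPases, while other activators can cap the core in its place. Interferon-responsive beta subunits can replace the standard cutting subunits to give the immunoproteasome, which supplies peptides for antigen presentation. In the brain, loss of proteasome function has long been studied as a feature of dopamine neuron degeneration.

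All mice had the FVB/N background: FVB/N itself, TgS mice carrying human AChE-S and TgR mice carrying human AChE-R, which are splice variants of acetylcholinesterase. Mice were naive or exposed to MPTP, a compound converted in the brain to a toxin of dopamine neurons. MPTP was given as MPTP-HCl in saline, with 4 doses of 20 mg/kg at intervals of 2 h (80 mg/kg in total), and prefrontal cortex (PFC) and caudate-putamen (CPu) were taken on day 4 after isoflurane anaesthesia. Per the protocol, 6 mice of each strain received MPTP and 6 received saline. The arrays of the unexposed arm are labelled naive, and the labels do not tie them to the saline mice. Age, sex, the promoter that drives each transgene and the number of mice behind an array are also not stated in the labels. Naive PFC had 4 arrays per strain, MPTP-exposed TgR CPu had 1, and each of the other 8 groups had 2. One array titled as FVB/N CPu control 2 carries a description that speaks of MPTP; its title, source and characteristics say naive, and it was used as naive. Nothing shows that arrays of a group are separate mice, so p-values measure only the spread between these arrays.

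Deposited values were RMA log2 signals, in which a difference of 1 is a 2-fold change. Medians over all probe sets lay between 7.61 and 7.78 on every array. The 6 naive PFC arrays numbered as replicates 1 and 2 of each strain stood apart: Eif2s3y, a Y-linked gene, read 3.42 to 3.83 in them against 8.41 to 9.20 on the other 23 arrays, and Xist read 8.62 to 10.61 against 6.78 to 7.24. Control signals also reached lower in these 6 arrays. The 5′ minus 3′ probe difference was -0.66 to 0.01 for Gapdh, against -0.06 to 0.09 on the other 23. For actin it was -2.3 to -0.79 against -1.41 to -0.62. The dap control read 3.81 to 7.63 against 6.36 to 7.79. Naive PFC replicates 3 and 4 resembled the MPTP PFC arrays in these sex-linked genes. They differed from them in the bioB hybridisation control, which read 6.94 to 7.47 in replicates 3 and 4, 7.64 to 8.04 in MPTP PFC and 7.59 to 8.22 in replicates 1 and 2, and in the spelling of the region in the source label, which MPTP PFC shares with replicates 1 and 2. MPTP in the PFC is therefore given against replicates 3 and 4, with the values of replicates 1 and 2 beside it. Neither set of naive arrays matches the MPTP PFC arrays in both respects. The sex-linked signals have the female pattern in replicates 1 and 2 and the male pattern on the other 23 arrays. The parts of sex, RNA quality and array handling in the PFC differences were not tested. Neuron markers matched the region labels: 4 of 4 measured cortical neuron genes were higher and 6 of 6 striatal neuron genes lower in naive PFC than in naive CPu. Genes of neighbouring tissues were also lower in naive PFC: 4 of 4 choroid plexus genes, down to -5.04, and 5 of 5 thalamus genes, down to -2.08. Of all probe sets 29.4% were called lower there. The part of such tissue in the CPu values was not tested.

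Most members gave strong, steady signals. Mean log2 signals ran from 5.04 for Psma8, an alpha subunit best known from testis, to 12.12, with a median of 10.34, and 44 of 47 members averaged at least 8. Over all 29 arrays the standard deviation of a member ranged from 0.07 for Psmd6, a lid subunit, to 0.65 for Psmc3ip, with a median of 0.17. RNA came from whole tissue, so fewer cells of a type and less RNA per cell cannot be told apart in any difference below.

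After MPTP in the PFC, most genes of the core particle and 4 of 6 ATPase genes of the regulatory particle read lower. The non-ATPase genes of that particle went both ways, with 4 lower and 2 higher. Higher calls were also made for 2 activator genes and the immunoproteasome gene Psmb9. Against naive replicates 3 and 4, 25 of 47 members fell and 5 rose at an adjusted p under 0.05 in limma. Over all 22626 probe sets, 22% were called lower and 28.5% higher in this comparison (50.5% in either direction), so members were called lower more often (53.2%) and higher less often (10.6%) than probe sets at large. The median member difference was -0.13 log2, against 0.02 for all probe sets, and 38 of 47 differences were below 0. When the arrays were scaled by their medians, the split was 35 lower and 4 higher. In 12 members (25.5%) all 6 MPTP arrays lay below all 6 of these naive arrays, against 8.42% of all probe sets, and in 3 (6.38%) above, against 12.5%. Of the 5 members that rose against replicates 3 and 4, only Psme4 was also called higher against replicates 1 and 2.

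In the alpha ring 7 of 8 genes were called lower and none higher, with a median difference of -0.31. Psma7 had the largest fall among members. Its log2 signals (lowest, median, highest) were 10.75, 10.87 and 10.94 in naive replicates 3 and 4 and 10.22, 10.36 and 10.41 in MPTP PFC. All 6 MPTP arrays lay below all 6 of these naive arrays, and the difference was -0.52 ± 0.04 (± SE here and below, adjusted p = 6.53e-08). Psma1 read 9.99, 10.10 and 10.30 in the naive and 9.47, 9.59 and 9.79 in the MPTP arrays, again without overlap, a difference of -0.51 ± 0.05 (adjusted p = 1.67e-06). Psma6 read 11.11, 11.20 and 11.28 against 10.61, 10.87 and 10.94, a difference of -0.35 ± 0.04 (adjusted p = 5.22e-06). This Psma6 probe set is of the platform's x_at class, which can bind other transcripts; a second bright Psma6 probe set fell by 0.22. The other called genes, Psma2, Psma3, Psma4 and Psma5, fell by 0.36, 0.17, 0.17 and 0.26. Psma8, near the bottom of the signal range, did not pass the test. Averaged over the 8 genes, the ring read 10.15 to 10.36 in naive replicates 3 and 4, 10.14 to 10.27 in replicates 1 and 2 and 9.88 to 10.03 in MPTP PFC, so that the MPTP arrays lay below all 12 naive arrays.

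Of the structural beta subunits, 4 of 4 fell. Psmb3 moved most, from 10.33, 10.38 and 10.48 to 9.69, 10 and 10.05. No MPTP array reached a naive one, and the difference was -0.45 ± 0.05 (adjusted p = 3.8e-06). Psmb1, Psmb2 and Psmb4 fell by 0.22, 0.27 and 0.12. The 2 other, dimmer probe sets of Psmb1 were called in opposite directions, at -0.37 and 0.28. The standard catalytic subunits differed in their calls. Psmb6, which cuts after acidic residues, read 10.50, 10.61 and 10.62 in naive and 10.16, 10.30 and 10.40 in MPTP arrays. The groups did not overlap, with a difference of -0.29 ± 0.04 (adjusted p = 2.71e-05). Psmb5, which cuts after hydrophobic residues, differed by -0.06 ± 0.04 and Psmb7, which cuts after basic residues, by -0.06 ± 0.04 (adjusted p = 0.29 and 0.234). Neither passed the test, and in both genes MPTP and naive arrays overlapped.

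Psma7 and Psmb6, the genes with the largest fall of the alpha ring and of the standard catalytic subunits, are shown with the 250 bases before their RefSeq transcription start (GRCm38.p6), read along the gene's strand from 5′ to 3′. Capitals mark a match to one of 4 motifs searched on both strands of the 300-base windows around the starts: TGACNNNGC (antioxidant response element core), the interferon response element (GAAA, NN, GAAA), TTCNNNGAA (STAT element) and CCAAT. Psma7 is at chr2:180042465-180042714 on the minus strand, and its capitals are a CCAAT box. Psmb6 is at chr11:70525107-70525356 on the plus strand, and its capitals, at positions -9 to -1 before the start, are an antioxidant response element core.
Psma7: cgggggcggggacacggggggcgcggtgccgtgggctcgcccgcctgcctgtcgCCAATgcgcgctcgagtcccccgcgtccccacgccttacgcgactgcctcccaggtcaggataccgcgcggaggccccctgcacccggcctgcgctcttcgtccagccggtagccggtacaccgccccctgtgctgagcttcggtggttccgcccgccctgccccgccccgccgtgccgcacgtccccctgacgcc
Psmb6: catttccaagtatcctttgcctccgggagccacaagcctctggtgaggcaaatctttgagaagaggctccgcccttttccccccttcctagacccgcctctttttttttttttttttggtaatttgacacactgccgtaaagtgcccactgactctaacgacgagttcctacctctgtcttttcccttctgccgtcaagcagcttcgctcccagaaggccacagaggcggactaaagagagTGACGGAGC
Windows were given for 39 of the 47 members. These 39 genes had 42 windows, of which 6 (14.3%) held TGACNNNGC, the kind of sequence that Nfe2l1 and Nfe2l2 bind, against 12.4% of all 32851 windows. CCAAT was in 15 (35.7%, all windows 37.4%), and TTCNNNGAA in 3 (7.14%, all windows 8.3%). The interferon response element was in 5 (11.9%), those of Psmb3, Psmd4, Psmd9, Psme1 and Psmg4, against 3.44% of all windows. A match describes these letters only.

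Among the immunoproteasome subunits no common direction was seen. Psmb10 read 10.03, 10.07 and 10.14 in naive replicates 3 and 4 and 9.61, 9.85 and 10.03 in MPTP arrays. These values met at 10.03, and the gene fell by 0.23 (SE 0.04, adjusted p = 0.00033). Psmb9 rose by 0.14 ± 0.04 (adjusted p = 0.0111) from 5.96, 6.38 and 6.50 to 6.21, 6.44 and 6.58, with overlap. Psmb8 differed by 0.09 ± 0.05 and was not called (adjusted p = 0.15). The direction of both Psmb8 and Psmb9 turned with the control set: naive replicates 1 and 2 read 6.98, 7.14 and 7.37 for Psmb8 and 6.51, 6.78 and 7.33 for Psmb9, and against these the MPTP arrays differed by -0.48 ± 0.06 and -0.48 ± 0.05.

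In the 19S particle, 4 of 6 ATPases fell: Psmc1 by 0.28, Psmc3 by 0.21, Psmc2 by 0.18 and Psmc6 by 0.16. Psmc4 and Psmc5 differed by -0.02 and -0.04 and were not called. Of the 11 non-ATPase subunits, 4 fell and 2 rose. The 4 were Psmd7 (by 0.21), Psmd13 and Psmd14 (by 0.18 each) and Psmd12 (by 0.17). Psmd14 is the deubiquitinase of the lid. Psmd1, Psmd2, Psmd4, Psmd6 and Psmd8 were not called. The rises were Psmd3, at 0.28 ± 0.04, and Psmd11, at 0.88 ± 0.05 (adjusted p = 3.22e-05 and 5.96e-09). Psmd11, the lid subunit that contacts the core, read 10.21, 10.46 and 10.61 in naive replicates 3 and 4 and 11.19, 11.30 and 11.42 in MPTP PFC, with no overlap. This rise belonged to 1 probe set. Of the other 5 probe sets of Psmd11, 2 fell (by 0.20 and 0.16), and 3 were not called, with differences of -0.10, -0.02 and 0.11. Naive replicates 1 and 2 read 10.93, 11.23 and 11.48 on the leading probe set, within 0.10 of the MPTP arrays on average (adjusted p = 0.198). Psmd3 turned direction there, at -0.16 ± 0.05, as did Psmd7, at 0.37 ± 0.11, and Psmc6, at 0.13 ± 0.04. For Psmd7, naive TgR replicate 2 read 8.13, while the other arrays of replicates 1 and 2 read 9.02 to 9.51. A dim second probe set of Psmd7 was called higher against replicates 3 and 4, at 0.27, and another was not called.

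Of the 3 measured activators, 2 were called, both higher. Psme3, which caps the core in the nucleus, read 8.25, 8.48 and 8.61 in naive replicates 3 and 4 and 9.13, 9.30 and 9.41 in MPTP PFC. The arrays did not overlap, and the difference was 0.83 ± 0.05 (adjusted p = 5.81e-09). A second Psme3 probe set also rose, by 0.36 (0.21 against replicates 1 and 2), and another, dim one fell by 0.27. Against replicates 1 and 2, at 9.01, 9.18 and 9.43, the leading probe set differed by 0.07 ± 0.06 (adjusted p = 0.298), so the call of this probe set rests on the control set. Psme4, an activator that opens the core without ATP, read 9.30, 9.69 and 9.85 in replicates 1 and 2, 9.68, 9.94 and 10.06 in replicates 3 and 4 and 10.04, 10.23 and 10.60 in MPTP PFC. It rose by 0.39 ± 0.07 against replicates 3 and 4 (adjusted p = 0.000401), where the lowest MPTP array overlapped the highest naive one, and by 0.65 ± 0.07 against replicates 1 and 2 (adjusted p = 7.39e-07). All 3 Psme4 probe sets rose against either set. Psme1, which joins Psme2 in the interferon-responsive cap, differed by -0.01 ± 0.04 and was not called.

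Of the 7 assembly chaperones, 3 fell and none rose. Psmg2, which acts on the alpha ring, fell by 0.11, and Psmg1, Psmg3 and Psmg4 were not called. Of the 3 chaperones of the 19S base, Psmd10 fell by 0.34 and Psmd5 by 0.14, and Psmd9 differed by 0.14 ± 0.06 without being called. Psmd10 read 8.22, 8.42 and 8.56 in naive replicates 3 and 4 and 7.93, 8.09 and 8.14 in MPTP PFC, so the groups did not overlap. Psmc3ip, which is not part of the complex, fell by 0.23 against replicates 3 and 4. It read 0.64 ± 0.06 higher against replicates 1 and 2, which rested on FVB/N. There Psmc3ip read 6.99 and 6.76 in replicates 1 and 2 and 9.12 and 9.18 after MPTP. In TgS it read 9.18 and 9.24 in replicates 1 and 2 and 9.20 and 9.01 after MPTP. In TgR it read 9.52 and 9.30, and 9.15 and 9.14. Psme3ip1 differed by -0.01 ± 0.03 from replicates 3 and 4 without being called.

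**Figure D1:**
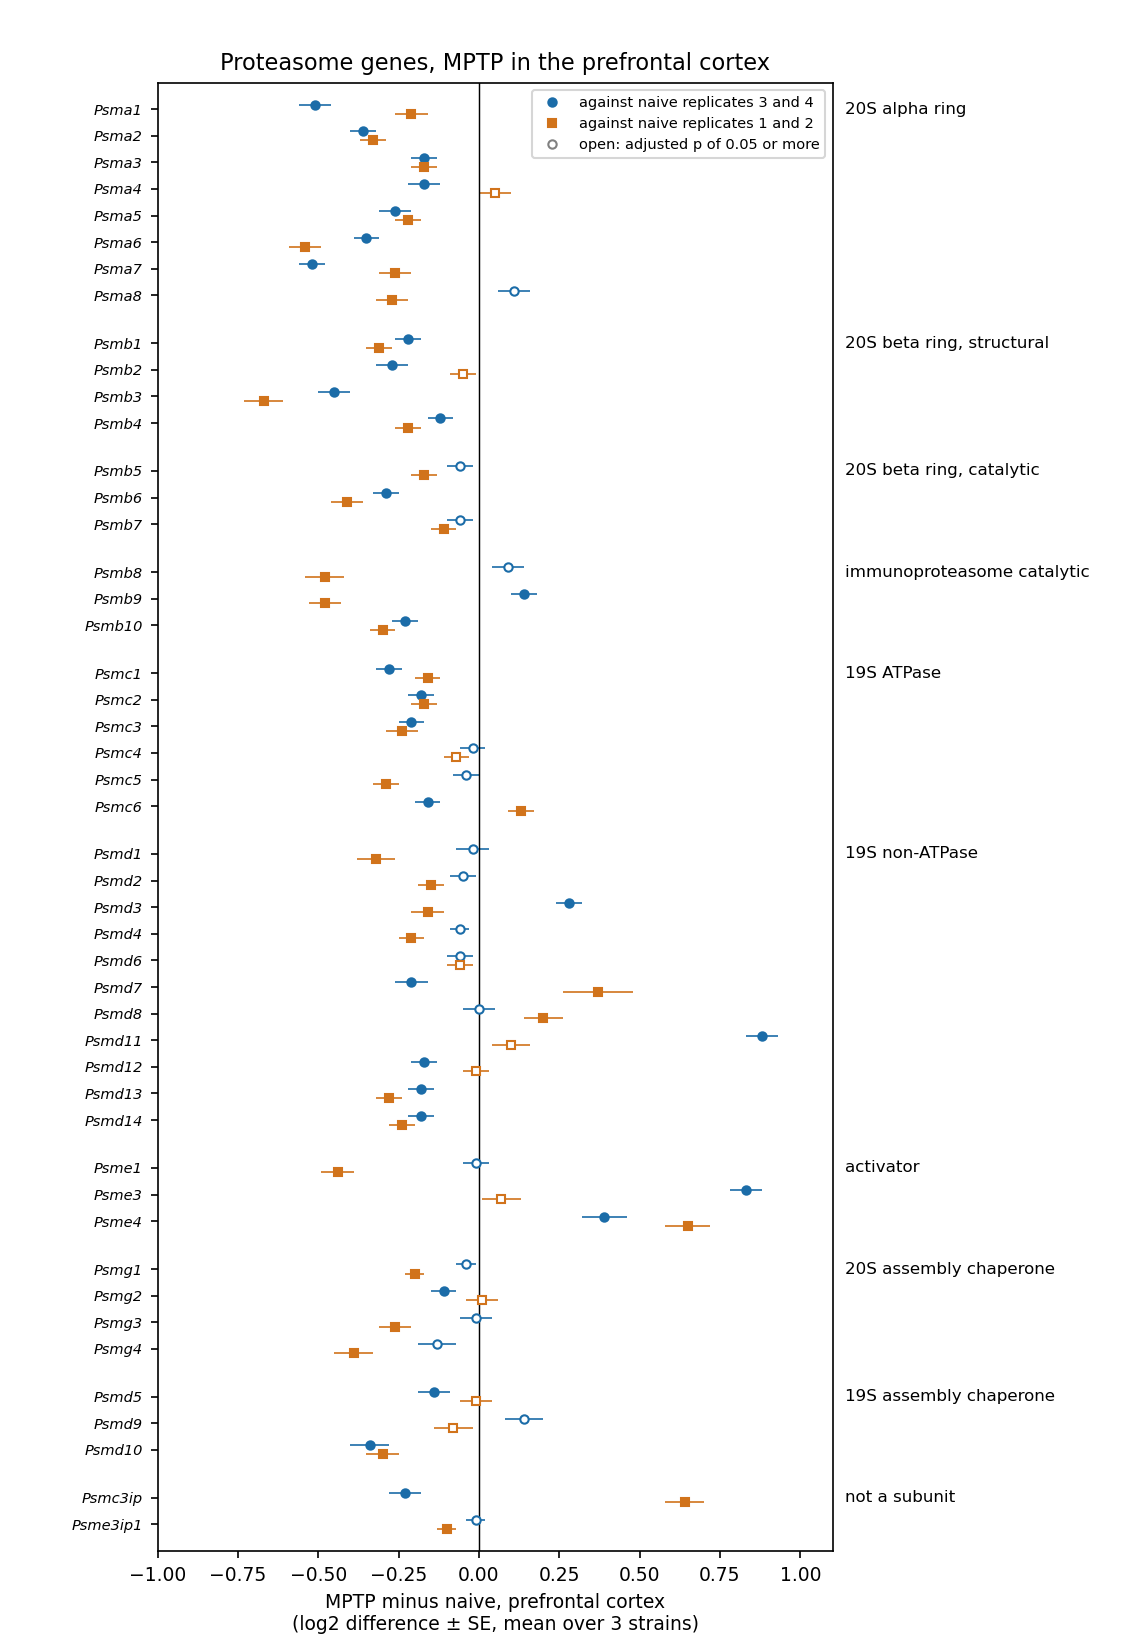
Log2 difference between MPTP and naive PFC (± SE, mean over 3 strains) for each of 47 genes, grouped by role, against naive replicates 3 and 4 (circles) and 1 and 2 (squares), with open symbols at an adjusted p of 0.05 or more. The alpha ring and structural beta genes sit left of 0 against either set for most members, while Psmd11 and Psme3 sit near 0.88 and 0.83 against replicates 3 and 4 only.

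With replicates 1 and 2 as controls, 32 members were lower and 5 higher (66.1% of all probe sets called, 41.4% lower), and the median difference was -0.20 against -0.08 for all probe sets. limma called 17 members (36.2%) lower against each set of naive arrays, in separate fits, compared with 15.9% of all probe sets: Psma1, Psma2, Psma3, Psma5, Psma6, Psma7, Psmb1, Psmb3, Psmb4, Psmb6, Psmb10, Psmc1, Psmc2, Psmc3, Psmd10, Psmd13 and Psmd14. Psme4 was the 1 member called higher against each, compared with 14% of probe sets. Both comparisons use the same MPTP arrays. In 7 members the 6 MPTP arrays lay below all 12 naive PFC arrays: Psma2, Psma5, Psma6, Psmb3, Psmb6, Psmc3 and Psmd10. That is 14.9% of members against 3.46% of all probe sets. No member lay above all 12, against 4.12% of probe sets. The 2 sets of naive arrays differed from each other in 35 of 47 members, 22 higher and 13 lower in replicates 1 and 2, at a background of 60.6%.

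**Figure D2:**
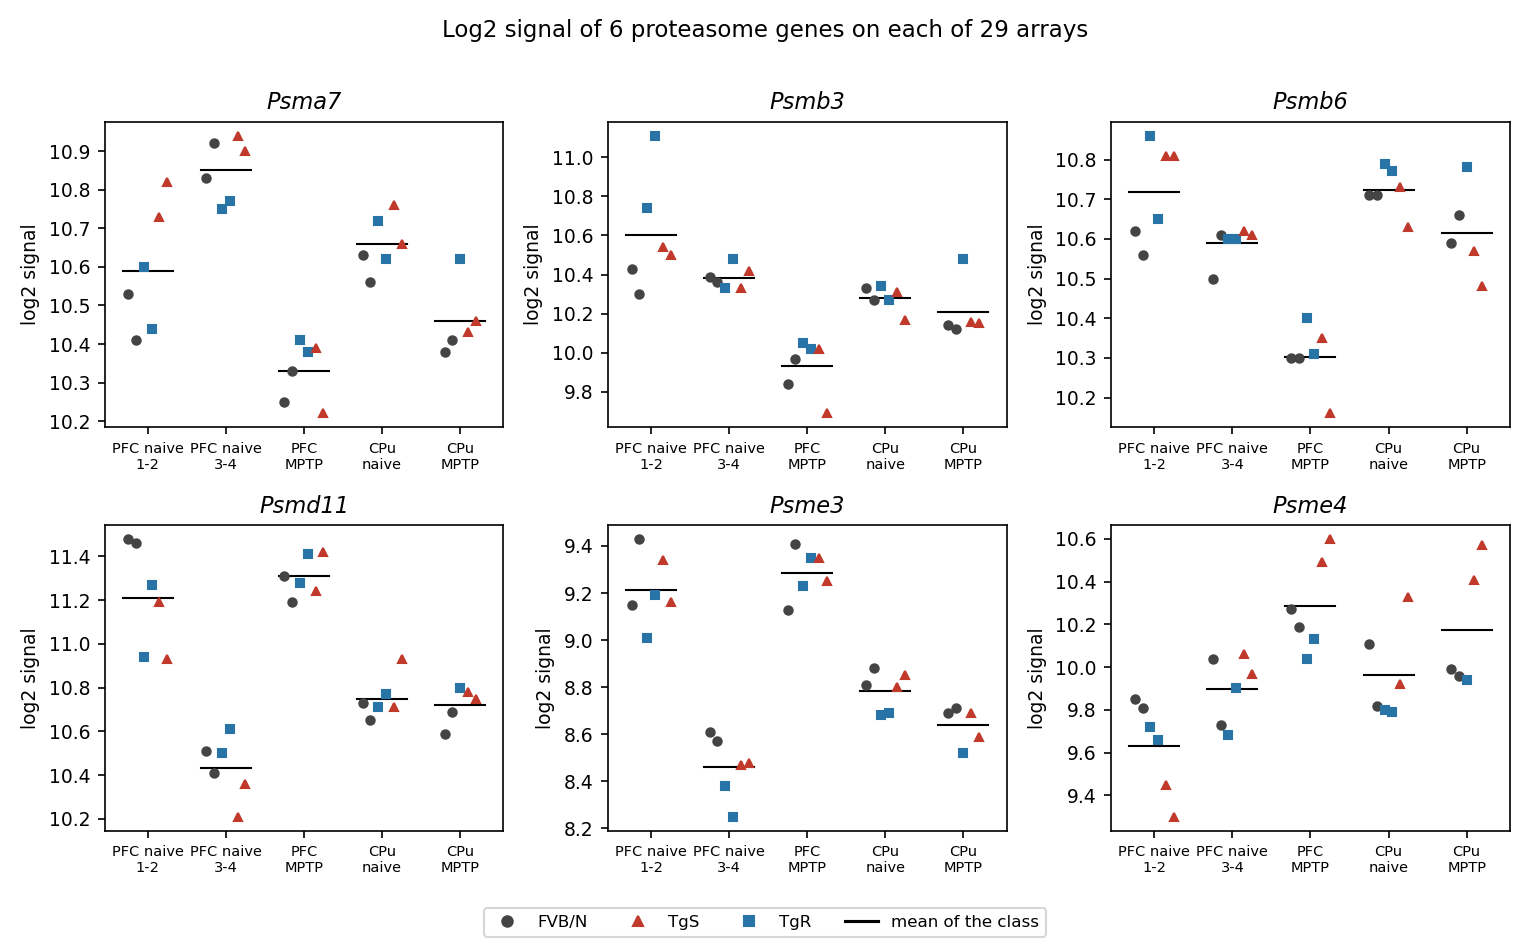
Log2 signal of 6 proteasome genes on each array, by region, treatment and, for naive PFC, replicate pair; symbols give the strain and lines the mean of the class. Psma7, Psmb3 and Psmb6 have their lowest class mean in MPTP PFC, Psmd11 and Psme3 are low in naive PFC replicates 3 and 4 but not in replicates 1 and 2, and Psme4 has its highest arrays in MPTP-exposed TgS mice.

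Each strain alone gave fewer calls in FVB/N and TgR than in TgS. In FVB/N 9 members fell and 3 rose (background 18.9%, 7.5% lower). TgS gave 27 that fell and 5 that rose (37.1%, 15.8% lower), and TgR 7 and 3 (22.5%, 8.66% lower). Psma7 fell by 0.58 in FVB/N, 0.62 in TgS and 0.37 in TgR. Psmb6 fell by 0.25, 0.36 and 0.25, and Psmb3 by 0.47, 0.52 and 0.37. Psme4 was called in TgS, at 0.53 ± 0.13 (SE), and differed by 0.35 ± 0.13 in FVB/N and 0.29 ± 0.13 in TgR without being called. The test of the strain differences themselves called no member, for TgS (0.645% of probe sets called) or TgR (0.0707%), so a stronger response in TgS was not shown. At an unadjusted p under 0.05, 10 members differed for TgS and 2 for TgR. No share of all probe sets is given at that unadjusted threshold, so neither count can be read as an excess.

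Genes that serve the proteasome without carrying the prefix were called in both directions. Of 19 measured partners, 7 rose and 3 fell in MPTP PFC against replicates 3 and 4. Over all probe sets 28.5% were called higher and 22% lower, 50.5% in either direction. Partners were thus called about as often as probe sets at large. Rad23b, which shuttles ubiquitinated proteins to the proteasome, rose by 0.45 ± 0.06 (SE), and Bag6, a chaperone for mislocalised proteins, rose by 0.37 ± 0.05. Nfe2l1, the transcription factor that drives proteasome genes when the proteasome is blocked, rose by 0.17 ± 0.05. Uchl5, a deubiquitinase docked on the 19S particle, fell by 0.26 ± 0.04. The other two falls were Pomp, the maturation factor of the core, and Sem1, a small lid subunit, both by 0.15. Against replicates 1 and 2, Nfe2l1 was lower (-0.48 ± 0.05), Rad23b and Bag6 were not called, and Uchl5 (-0.21 ± 0.04), Pomp (-0.19 ± 0.05) and Sem1 (-0.30 ± 0.05) were again lower. Vessel markers moved in the same arrays: 5 of 7 rose, and their mean log2 signal was 7.77 to 8.56 in naive replicates 3 and 4 and 8.46 to 8.75 in MPTP PFC. Cortical neuron markers fell in 2 of 4 and oligodendrocyte markers in 1 of 6. Their part in the proteasome differences was not tested.

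In the CPu, the region that MPTP lesions most directly through its dopamine input, a single member passed the test. Psma7 fell there too, from 10.63, 10.56, 10.76, 10.66, 10.72 and 10.62 on the naive arrays of FVB/N, TgS and TgR in turn to 10.38, 10.41, 10.43, 10.46 and 10.62 on the MPTP arrays of FVB/N (2), TgS (2) and TgR (1). The TgR array sat among the naive values and the other 4 MPTP arrays below all of them. The difference was -0.17 ± 0.04 (adjusted p = 0.0316), and 4.54% of all probe sets were called. This call is at the edge of the threshold: without naive FVB/N 1 or 2, MPTP FVB/N 1 or 2, naive TgS 1, MPTP TgS 1 or 2, or naive TgR 1, the adjusted p rose to between 0.0516 and 0.0796. At an unadjusted p under 0.05, 14 of 47 members differed. The share of all probe sets at that unadjusted threshold is not given here, so the count cannot be read as an excess. The median member difference was -0.06 against 0.01 for all probe sets, with 39 of 47 below 0, and no 95% interval of a member reached beyond -0.33 or 0.34. All 11 non-ATPase and all 6 ATPase subunits had differences below 0, none of them called.

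In Psma1 and Psmb7 the 5 MPTP CPu arrays lay below all 6 naive ones, which is 4.26% of members against 0.548% of probe sets. Psma1 read 9.94, 10.10, 9.99, 10, 9.93 and 9.91 in naive and 9.89, 9.89, 9.73, 9.83 and 9.84 in MPTP CPu, a difference of -0.14 ± 0.06 (adjusted p = 0.194). Psmb7 read 12.14, 12.19, 12.19, 12.18, 12.20 and 12.20 and 12.04, 12.09, 12.05, 12.07 and 12.08, a difference of -0.12 ± 0.05 (adjusted p = 0.181). Neither passed the test despite the separation. Within strains, TgS gave 2 calls (background 3.78%), Psma7 at -0.26 ± 0.07 and Psme1 at -0.44 ± 0.08 (adjusted p = 0.042 and 0.00457). FVB/N (0.676%) and TgR (0.495%) gave none, and TgR rests on 1 MPTP array. Over the 3 strains, microglia markers rose with MPTP in the CPu in 9 of 11 cases, where 4.54% of all probe sets were called. Their mean signal was 9.0 to 9.29 in naive and 9.42 to 9.80 in MPTP CPu, and their part in the proteasome values was not tested. None of the 19 partner genes was called in the CPu by limma, where 4 had an unadjusted p under 0.05. The share of all probe sets at that unadjusted threshold is not given either.

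The difference between the regions in the response to MPTP was tested directly, again with naive PFC replicates 3 and 4. It was called in 15 members, 11 with a more negative and 4 with a more positive difference in the PFC, at a background of 32.5% (14% and 18.5%). The 11 were 5 alpha subunits (Psma1, Psma2, Psma5, Psma6 and Psma7), Psmb3, Psmb6, Psmc1, Psmc3, Psmd10 and Psmc3ip. Psma7 differed by -0.35 ± 0.06 and Psmb3 by -0.43 ± 0.08 (adjusted p = 0.000468 and 0.000818). The 4 were Psme3, at 0.99 ± 0.07, Psmd11, at 0.89 ± 0.08, Psmd9, at 0.33 ± 0.09, and Psmd3, at 0.29 ± 0.06. All are values of the leading probe sets, and Psme3 had probe sets called in opposite directions in this test. Under 10 other settings the Psmd11 difference went down to 0.07, and 4 of the 10 lost the call. With naive replicates 1 and 2 as controls, the difference between the regions was -0.09 for Psma7, 0.11 for Psmd11 and -0.15 for Psmd3, none called (adjusted p = 0.287, 0.335 and 0.0713), and it was still called for Psmb3 at -0.64 and Psme3 at 0.24 (adjusted p = 7.67e-05 and 0.0369). Scaling by array medians gave 21 more negative and 3 more positive. CPu values of Psme3 were 8.81, 8.88, 8.80, 8.85, 8.68 and 8.69 in naive and 8.69, 8.71, 8.69, 8.59 and 8.52 in MPTP mice. These CPu arrays show no rise for Psme3, whose CPu difference was -0.16 ± 0.05 and was not called.

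Few members differed between strains. Averaged over both regions and treatments, 3 members were lower and 1 higher in TgS than in FVB/N, at a background of 11.6%. The lower members were Psmb9, Psmb8 and Psme1, and the higher member was Psme4. TgR differed from FVB/N in none of the 47 by limma at a background of 4.73%, although 8 had an unadjusted p under 0.05. That background is for adjusted p, and the share at the unadjusted threshold is not given, so the 8 cannot be read as an excess. No 95% interval for TgR against FVB/N reached beyond -0.26 or 0.24. TgS against TgR gave 5 lower members (Psmb3, Psmb8, Psmb9, Psme1 and Psmg4) and 2 higher ones (Psme4 and Psmc6), at a background of 17.9%. Without naive PFC array FVB/N 4, 9 members differed between TgS and FVB/N.

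Psmb9 separated most clearly. In naive PFC it read 6.50 and 6.42 on the FVB/N arrays, 5.99 and 5.96 on those of TgS and 6.33 and 6.49 on those of TgR. In MPTP PFC the values were 6.43 and 6.45, 6.21 and 6.36, and 6.58 and 6.49. In naive CPu they were 6.47 and 6.54 for FVB/N, 6.16 on both TgS arrays and 6.28 and 6.31 for TgR, and in MPTP CPu 6.42 and 6.54, 6.22 and 6.28, and 6.49. In each of the 4 states both TgS arrays lay below every FVB/N and TgR array. The difference from FVB/N was -0.30 ± 0.04 (adjusted p = 2.84e-05) and from TgR -0.26 ± 0.04 (adjusted p = 0.000174). With naive PFC replicates 1 and 2 as controls the difference from FVB/N was -0.20. In those arrays TgS, at 6.51 and 6.79, overlapped FVB/N, at 6.78 and 6.70, and lay below TgR, at 7.33 and 7.29.

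Psmb8 read 6.59 and 6.72 on the FVB/N arrays, 6.40 and 6.54 on those of TgS and 6.61 and 6.66 on those of TgR in naive PFC. In naive CPu it was 6.71 and 6.81, 6.39 on both TgS arrays, and 6.69 and 6.61, and in MPTP CPu 6.73 and 6.71, 6.46 and 6.52, and 6.94. In these 3 states, with naive PFC taken from replicates 3 and 4, TgS lay below both other strains. In naive PFC replicates 1 and 2, at 7.20 and 6.98, 7.08 and 7.00, and 7.36 and 7.37, TgS overlapped FVB/N. In MPTP PFC, at 6.80 and 6.49, 6.68 and 6.54, and 6.72 and 6.86, TgS overlapped FVB/N. Differences were -0.21 ± 0.05 from FVB/N and -0.26 ± 0.05 from TgR (adjusted p = 0.00824 and 0.00144). Psmb10, the remaining immunoproteasome subunit, did not pass the test against either strain (-0.02 ± 0.04 and -0.01 ± 0.04).

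Psme1 depended on the state. It read 9.32 and 9.22 on the FVB/N arrays, 8.99 and 9.04 on those of TgS and 9.35 and 9.41 on those of TgR in naive PFC, and 9.10 and 9.23, 9.08 and 8.97, and 9.47 and 9.41 in MPTP PFC. In naive CPu it was 9.44 and 9.53, 9.72 and 9.68, and 9.76 and 9.64, and in MPTP CPu 9.60 and 9.69, 9.35 and 9.17, and 9.54. TgS was thus lowest in 3 states and above FVB/N in naive CPu. The change with MPTP in CPu differed between TgS and FVB/N by -0.60 ± 0.11 (adjusted p = 0.00947), the 1 member called in that test, at a background of 1.42%. In the same test 5 thalamus genes ran from -1.99 to -0.03, with Gbx2 and Slc17a6 called. In naive CPu these 5 genes read 0.04 to 1.46 higher in TgS than in FVB/N. The part of such tissue in the Psme1 values was not tested. Averaged over states, Psme1 in TgS differed from FVB/N by -0.14 ± 0.04 (adjusted p = 0.026). That call was lost, with an adjusted p between 0.0553 and 0.0711, without any 1 of 7 arrays: MPTP PFC FVB/N 2, MPTP PFC TgS 2, naive CPu FVB/N 2, MPTP CPu FVB/N 2, MPTP CPu TgS 2, naive PFC FVB/N 3 or naive PFC TgS 3. It was also lost with naive PFC replicates 1 and 2 as controls, at -0.08 (adjusted p = 0.299). In those arrays TgS read 9.61 and 9.53, between the FVB/N values of 9.68 and 9.48. Against TgR, with replicates 3 and 4, the difference averaged over states was -0.27 ± 0.04 (adjusted p = 0.000314).

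Psme4 went the other way. Its TgS arrays read 10.06 and 9.97 in naive PFC, 10.49 and 10.60 in MPTP PFC, 9.92 and 10.33 in naive CPu and 10.41 and 10.57 in MPTP CPu. FVB/N read 10.04 and 9.73, 10.27 and 10.19, 10.11 and 9.82, and 9.99 and 9.96 in the same order. TgR read 9.68 and 9.90, 10.04 and 10.13, 9.80 and 9.79, and 9.94. TgS lay above every FVB/N and TgR array in both MPTP states and overlapped FVB/N in the naive ones. The differences were 0.28 ± 0.06 from FVB/N and 0.39 ± 0.07 from TgR (adjusted p = 0.00959 and 0.000876), and all 3 probe sets of the gene were called in both. With naive PFC replicates 1 and 2 in place of 3 and 4 the difference from FVB/N was 0.13 and was not called (adjusted p = 0.155). In those naive arrays TgS, at 9.45 and 9.30, lay below FVB/N, at 9.85 and 9.81, and TgR, at 9.72 and 9.66. Whether MPTP changed Psme4 more in TgS than in FVB/N was tested within each region and was not called.

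**Figure D3:**
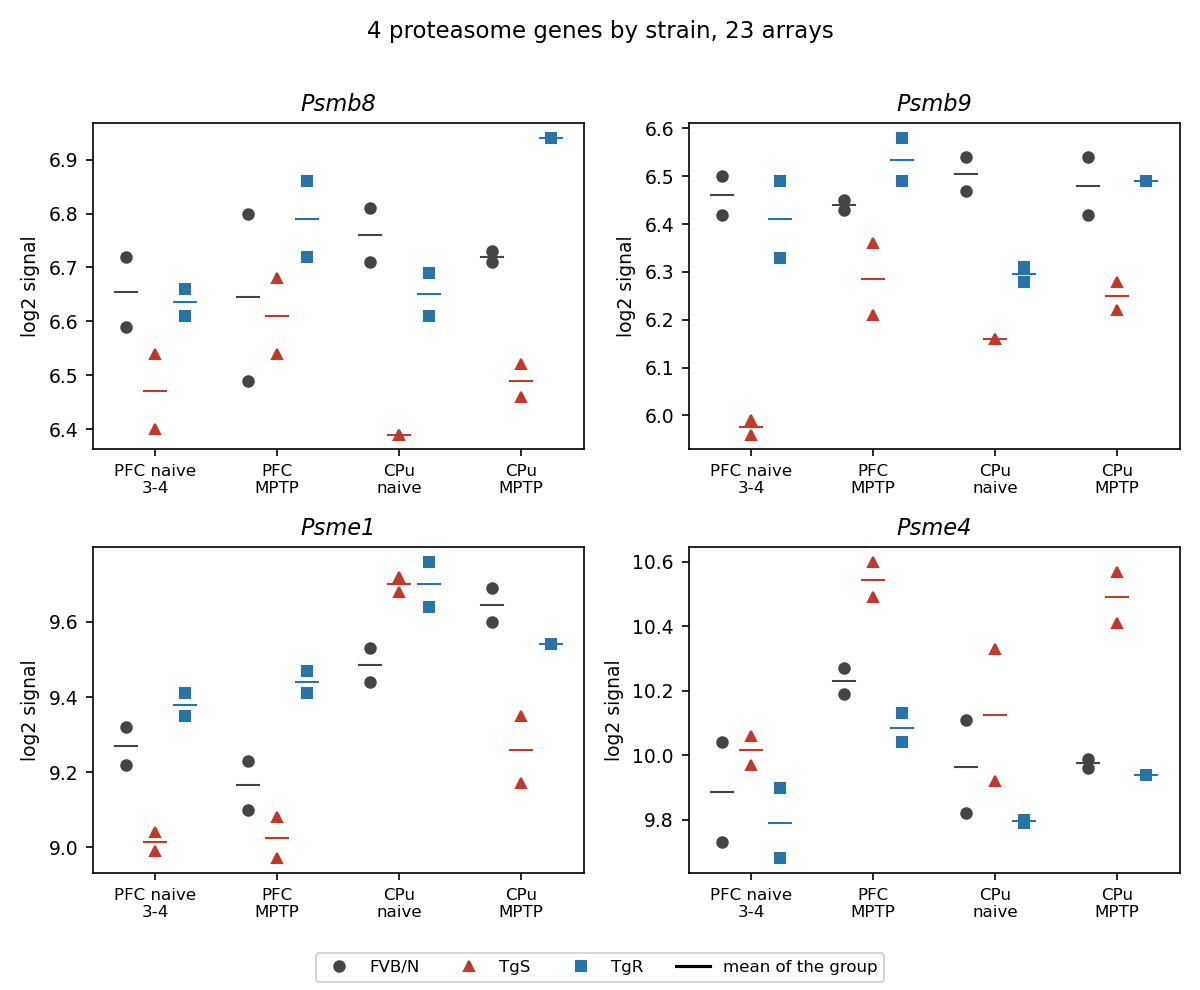
Log2 signal of Psmb8, Psmb9, Psme1 and Psme4 by strain in naive PFC (replicates 3 and 4), MPTP PFC, naive CPu and MPTP CPu; points are arrays and short lines group means. TgS is lowest for Psmb9 in all 4 states and for Psme1 in 3, and highest for Psme4 in both MPTP states.

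The remaining TgS against TgR calls were small. Psmg4 differed by -0.25 ± 0.05, Psmb3 by -0.15 ± 0.05 and Psmc6 by 0.12 ± 0.04 (adjusted p = 0.00461, 0.0404 and 0.0308). Psmc6 was lost, at an adjusted p between 0.0511 and 0.0801, without MPTP PFC TgR 2, MPTP PFC TgS 2, MPTP CPu TgS 1, naive CPu TgR 1, naive PFC TgS 3 or naive PFC TgR 4. Of the 19 measured genes of antigen presentation and interferon response, 10 were lower in TgS than in FVB/N and none higher, with a median difference of -0.10. Of all probe sets 11.6% were called in either direction. These list counts use naive PFC replicates 3 and 4, and counts with replicates 1 and 2 are not given here. Among them were Ifit3 at -0.32 ± 0.04 (SE), H2-K1 at -0.29 ± 0.04 and B2m at -0.20 ± 0.03. TgR was lower than FVB/N in 5 of the 19 (Calr, H2-D1, H2-K1, Irf9 and Pdia3) and higher in none, at a background of 4.73%. H2-K1 was as low in TgR, at -0.31 ± 0.04 from FVB/N, and TgS differed from TgR by 0.01 ± 0.04. TgS was lower than TgR in 5 of the 19 and higher in 3, at a background of 17.9%. Markers of other cells moved between TgS and FVB/N (background 11.6%): 3 of 11 microglia genes and 4 of 7 vessel genes were lower in TgS. The mean microglia signal was 9.16 to 9.66 in FVB/N and 9.0 to 9.62 in TgS, and the mean vessel signal 8.29 to 8.64 and 7.77 to 8.66. Their part in the proteasome differences was not tested.

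The promoters of Psmb8, Psmb9 and Psme1 are printed because these 3 members were called lower in TgS than in FVB/N on average over the states, Psme1 less stably than the others; format and motifs are as for Psma7. In the RefSeq order of protein-coding genes on chromosome 17, Psmb9, Tap1, Psmb8 and Tap2 follow one another within the major histocompatibility complex, where Tap1 and Tap2 encode the peptide transporter that feeds antigen presentation. Psmb8 lies at chr17:34197945-34198194 on the plus strand, with a STAT element match in capitals. Psmb9 lies at chr17:34187331-34187580 on the minus strand, with a CCAAT box on the opposite strand in capitals. Psme1 lies at chr14:55578244-55578493 on the plus strand and has no match in the stretch shown; an interferon response element match begins 9 bases after its start.
Psmb8: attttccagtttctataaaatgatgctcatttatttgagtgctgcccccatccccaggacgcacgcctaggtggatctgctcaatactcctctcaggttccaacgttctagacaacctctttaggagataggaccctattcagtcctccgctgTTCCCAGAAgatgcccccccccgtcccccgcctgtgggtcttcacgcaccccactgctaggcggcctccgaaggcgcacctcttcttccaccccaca
Psmb9: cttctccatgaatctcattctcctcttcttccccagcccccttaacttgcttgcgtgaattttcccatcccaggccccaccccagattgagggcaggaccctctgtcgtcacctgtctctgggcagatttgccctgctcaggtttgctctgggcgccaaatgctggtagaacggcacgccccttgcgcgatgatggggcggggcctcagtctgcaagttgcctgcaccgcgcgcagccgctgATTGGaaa
Psme1: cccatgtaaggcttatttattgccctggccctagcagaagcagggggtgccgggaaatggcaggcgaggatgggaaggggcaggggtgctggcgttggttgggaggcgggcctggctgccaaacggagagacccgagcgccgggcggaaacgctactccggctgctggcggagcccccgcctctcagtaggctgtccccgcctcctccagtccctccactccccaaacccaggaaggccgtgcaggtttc

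Several members differed in level between the regions. Between naive PFC (replicates 3 and 4) and naive CPu, 12 members were higher and 7 lower in the PFC, against a background of 53.2% (23.8% higher, 29.4% lower). After MPTP, 9 were higher and 16 lower, at a background of 53.9% (25.2% and 28.7%). With arrays scaled by their medians the counts were 19 higher and 5 lower in naive mice and 7 higher and 20 lower after MPTP. Psmb10 differed most. It read 10.03, 10.07 and 10.34 in naive PFC replicates 1 and 2, 10.03, 10.07 and 10.14 in replicates 3 and 4, 9.61, 9.85 and 10.03 in MPTP PFC, 9.26, 9.36 and 9.47 in naive CPu and 9.28, 9.31, 9.20, 9.12 and 9.15 on the MPTP CPu arrays. All 18 PFC arrays lay above all 11 CPu arrays, which held for no other member and for 2.85% of all probe sets. The difference was 0.72 ± 0.04 in naive and 0.64 ± 0.05 in MPTP mice (adjusted p = 7.39e-10 and 8.33e-09).

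Psmc3, an ATPase, was higher in the PFC by 0.36 ± 0.04 in naive and 0.19 ± 0.04 in MPTP mice, and Psmd8, a lid subunit, by 0.28 ± 0.05 and 0.30 ± 0.05. Psmg4, an assembly chaperone, was lower in the PFC, at -0.39 ± 0.06 and -0.54 ± 0.06, with naive values of 8.18, 8.29 and 8.46 in PFC and 8.46, 8.70 and 8.90 in CPu that did not overlap by more than their meeting point of 8.46. Psme1 was lower as well, at -0.41 ± 0.04 and -0.27 ± 0.05. With naive replicates 1 and 2 in place of 3 and 4, none of Psme1 (0.02), Psmd8 (0.08), Psmg4 (-0.13) and Psmb6 (-0.01) was called between the naive regions (65% of all probe sets were; adjusted p = 0.692, 0.233, 0.0541 and 0.930), while Psmb10 and Psmc3 were. Psmb6 was lower in the PFC at -0.13 ± 0.04 in naive mice and -0.34 ± 0.04 after MPTP. Psmb5 was higher in naive PFC by 0.12 ± 0.04 (adjusted p = 0.0259); it lost the call, at an adjusted p of 0.0515 to 0.101, without naive CPu FVB/N 1, TgS 2 or TgR 2 or without naive PFC FVB/N 4, TgS 3 or TgR 4.

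Psme3 and Psmd11 were lower in naive PFC than in naive CPu, at -0.33 ± 0.05 and -0.32 ± 0.05, and higher in MPTP PFC than in MPTP CPu, at 0.67 ± 0.05 and 0.57 ± 0.06. With naive replicates 1 and 2 they were higher in naive PFC too, by 0.43 and 0.46. These are values of the leading probe sets, and the others differed. In naive mice the 5 other Psmd11 probe sets ran from 0.01 to 0.22 (1 called, higher) and the 2 other Psme3 ones were 0.04 (not called) and 0.50 (called). After MPTP the other Psmd11 probe sets ran from -0.11 to 0.15, with 1 called in each direction, and the mean of all Psmd11 probe sets differed by 0.09; a second Psme3 probe set was also higher, by 0.47. Oligodendrocyte markers, 6 of 6 of which were lower in the PFC in both treatments, moved with region: their mean signal was 10.10 to 10.53 in naive PFC replicates 3 and 4 and 11.39 to 11.82 in naive CPu. The part of cell composition in the regional values was not tested.

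**Figure D4:**
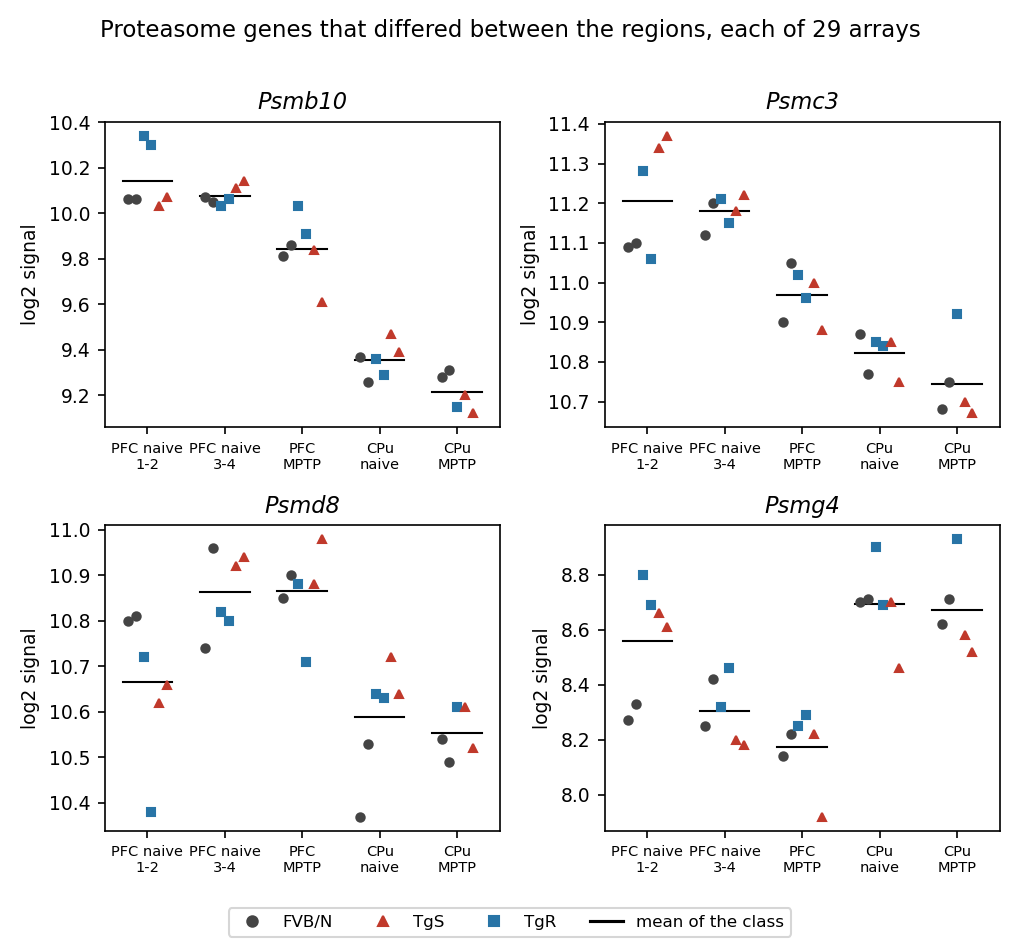
Log2 signal of Psmb10, Psmc3, Psmd8 and Psmg4 on each array, by region, treatment and replicate pair of naive PFC; symbols give the strain and lines the mean of the class. Psmb10 is higher on every PFC array (9.61 to 10.34) than on every CPu array (9.12 to 9.47), while PFC and CPu arrays of the other 3 genes overlap.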

How the data were processed

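RNA of PFC and CPu was hybridised to 29 Affymetrix mouse arrays. The authors deposited log2 signals made by RMA, per the labels and the submitters' processing notes, which name Expression Console and Power Tools; their versions and settings are not stated there. The signals are relative, and neither depth nor background signal is known: the number of arrays limits the precision. Of 22690 probe sets, 64 controls were left out. The platform annotation gave 1 symbol to 20380 of the other 22626, several to 691 and none to 1555, and probe sets with several symbols named no gene.

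limma 3.58.1 in R 4.3.3 was fitted to 23 arrays and 12 group means (11 residual degrees of freedom). The 6 naive PFC arrays numbered 1 and 2 were left out. Comparisons with these arrays as controls came from a separate fit, in which they took the place of the other naive PFC arrays. A fit of 29 arrays with 15 groups compared the sets of naive PFC arrays with each other. Adjusted p-values are Benjamini-Hochberg over all 22626 probe sets, with a threshold of 0.05, in 8 main comparisons. The fit was tested on simulated data.

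The members and gene lists were chosen with earlier results of these data known. Genes with full statistics were the catalytic subunits and activators, and in each comparison the 4 called members with the smallest p in each direction (the 2 smallest where none was called); the other members are given by range, count or difference, and members or partner genes named outside this rule (such as Psma8, Psmc4, Psmc5, the chaperones, the members whose arrays did not overlap, Nfe2l1, Pomp and Sem1) were chosen after their values were seen. Alternatives covered the naive arrays used, a replicate block, scaling, a filter on low values, the variance model, averaging of probe sets, each region alone and leaving out each array. Promoter windows and gene order came from RefSeq tables (GRCm38.p6).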

Additional observations from a re-analysis of the deposited data

Results flagged for a closer look

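One array stood away from the rest of its group. Psma5 read 10.96 in naive FVB/N PFC replicate 4, while the other 3 arrays of that group read 10.75 to 10.76, and the gap was 0.952 of the group's range above Dixon's critical value for 4 samples. Of 66 groups of 4 arrays examined over 22 members, this was the 1 past that value, where chance gives about 1 in 20.

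The response to MPTP differed between PFC and CPu, by limma's test of the difference itself with naive PFC replicates 3 and 4, in 9 named members. It was more negative in the PFC for Psma1 (-0.37, adjusted p = 0.00265), Psma6 (-0.34, adjusted p = 0.000881), Psma7 (-0.35, adjusted p = 0.000468), Psmb3 (-0.43, adjusted p = 0.000818) and Psmb6 (-0.21, adjusted p = 0.0156). It was more positive for Psmd11 (0.89, adjusted p = 1.89e-06), Psmd3 (0.29, adjusted p = 0.00188), Psmd9 (0.33, adjusted p = 0.0136) and Psme3 (0.99, adjusted p = 4.77e-07). These are values of the leading probe sets, and Psme3 had probe sets called in opposite directions. In the CPu the response of Psme1 differed between TgS and FVB/N, by -0.60 (adjusted p = 0.00947).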

How the results depend on the processing

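Most groups had 2 arrays, which limits the precision. Counts of members called are given here. With naive replicates 1 and 2 in place of 3 and 4, 30 members differed between naive regions (19 in the main fit), 25 in the MPTP response between regions (15), 12 between TgS and TgR (7), 5 between TgR and FVB/N (0) and 0 with MPTP in CPu (1). With all 29 arrays and no term for the array set, the counts were 15 for regions after MPTP (25), 5 for the response between regions, and 0 each for MPTP in CPu, TgS against FVB/N (4) and TgS against TgR. With a set term they were 0 for MPTP in CPu and 2 for TgS against FVB/N. Subtracting array medians gave 24 for the response between regions and 0 for MPTP in CPu. Fitting a region alone gave 0 for MPTP in CPu, 1 for TgS against FVB/N in PFC, and 3 for TgS against TgR in each region. MPTP in CPu gave 2 with the lowest 0.25 of probe sets left out, with the mean of a gene's probe sets and with a trended, robust variance, and the filter gave 1 for TgR against FVB/N.

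Leaving out 1 array at a time gave 14 to 22 for naive regions, 22 to 26 for regions after MPTP, 27 to 33 for MPTP in PFC, 0 to 3 for MPTP in CPu, 3 to 9 for TgS against FVB/N, 0 to 1 for TgR against FVB/N, 5 to 9 for TgS against TgR, 12 to 19 for the response between regions and 30 to 34 for the naive PFC sets. MPTP in CPu reached 3 without naive TgS 2 and 0 without naive FVB/N 2, MPTP FVB/N 1 or 2, naive TgS 1, MPTP TgS 1 or 2 or naive TgR 1. TgS against FVB/N reached 9 without naive PFC FVB/N 4. Without the single MPTP CPu array of TgR, comparisons that need it could not be fitted.

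Direction turned in 17 of 532 values of named members under other settings and in none of 1125 with an array left out. For naive regions Psme1 was 0.03 with a set term and 0.02 with replicates 1 and 2. Psme3 was 0.43 under both, 0.05 without a set term and 0.07 as a mean of probe sets, and Psmd11 was 0.46 under both, 0.07 and 0.01. For MPTP in PFC, with a set term and with replicates 1 and 2, Psmd3 was -0.16 and Psmb9 -0.48, and Psmb9 was -0.17 without a set term. Psmd3 was -0.15 under both in the response between regions. Of the other values, 442 of the first kind and 1098 of the second kept the call, while 73 and 27 lost it. The cause was not tested.

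Arrays with the same replicate number showed no common positive correlation of residuals: 20 values ran from -0.36 to 0.15, with 2 above 0.1 and 8 below -0.1. With 2 arrays in a group the residuals are equal and opposite. Each correlation therefore appears once for each replicate number, and the values are not independent. With the replicate number as a block, 20 members were called for MPTP in PFC (30 without it), 13 between naive regions and 8 in the response between regions.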
